A study of Drosophila melanogaster with 12 samples.

Results

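Tweedle, Obstructor and Vajk genes encode structural proteins of the insect cuticle. They were taken here as every gene of the deposited count table whose FlyBase symbol begins with Twdl, obst- or Vajk, which gave 37 of 17561 genes: 25 Tweedle, 8 Obstructor and 4 Vajk genes. The symbol rule leaves out 3 relatives that carry other names, Tb (the tubby gene, TwdlA), Gasp (obst-C) and Peritrophin-A (obst-D). RNA sequencing had been carried out on whole Drosophila melanogaster embryos aged 20 to 24 h, with 3 libraries in each of 4 groups. The elav null group carried the elav[null] allele. The double null group carried elav[null] together with fne[null], a null allele of a second gene of the same family of neuronal RNA-binding proteins. The WDd group carried the elav[WDd] allele. The control group, called WT, is given in the labels as elav[e5]/FM7 and in the column headers as elav null over FM7, a balancer of the X chromosome. Mutant embryos had been picked by the absence of the GFP of the FM7 KrGFP balancer. Each comparison of a mutant with WT thus also set embryos without FM7 against a control labelled as carrying it. Allele and balancer cannot be told apart in these comparisons. The genotype labels do not state the sex of the embryos, so a difference in sex between groups cannot be told apart from genotype either. Nothing in the labels ties the libraries of a group to separate embryo collections, so p-values cover the spread between these samples, which may be technical.

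The cuticle is laid down by the epidermis, and by the tracheae and foregut, as an apical extracellular matrix of chitin fibres bound by proteins. In the late embryo the epidermis secretes the cuticle of the first-instar larva, which is then tanned before hatching. Tweedle proteins share a conserved domain found in insects and affect body shape, since dominant mutations of Tb and TwdlD give short, stout animals. Obstructor proteins bind chitin through Peritrophin-A domains. Among them obst-A organises the chitin matrix of the larval cuticle, and obst-E guides the body shape of the pupa. The Vajk genes encode cuticle proteins, and Vajk1, Vajk2 and Vajk3 lie within the Nimrod gene cluster on 2L.

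Library totals ran from 22491041 to 97043662 counts. Levels are counts scaled to library size with TMM factors (CPM), and 3 counts, taken as the limit that a count of 0 allows, corresponded to 0.0328 to 0.139 CPM. This limit covers counting error only. The transcript of elav stood at 3.98, 4.78 and 6.27 CPM in elav null, 4.99, 5.53 and 6.12 CPM in the double null, 146, 191 and 155 CPM in WDd, and 68.6, 109.5 and 161 CPM in WT. That of fne stood at 173, 243 and 36.2 CPM in elav null, 19.6, 30.6 and 19.8 CPM in the double null, 214, 276 and 272 CPM in WDd, and 135, 202 and 249.7 CPM in WT. The library labelled elav null replicate 3 thus had fne close to the double null level, against its label, and it was also the shallowest library and had the fewest genes detected (10526 at a common depth of 2e+07 counts, against 11557 to 15579 in the other libraries). Where leaving this library out changed a call of a member or moved a called fold change given here by over 1.5 times, the value without it is given too. All markers of epidermal apical matrix, trachea, neurons, muscle, midgut and haemocytes that were matched had counts in every WT library. Of 7 fat body genes, 1, 2 and 1 had no count in WT replicates 1, 2 and 3.

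Both null groups lost most of the RNA of many cuticle genes of these families and gained RNA of a few. In elav null against WT, 19 of the 36 members tested were lower and 3 were higher, and 14 were not called (edgeR quasi-likelihood test, adjusted p under 0.05). Over all 14031 genes tested, 11.7% were lower and 5.99% higher. In the double null against WT, 19 of 36 members were again lower and 3 higher, beside 14.7% lower and 6.68% higher of all genes. The median log2 fold change of the members was -2.58 in elav null and -1.95 in double null embryos, where that of all genes was -0.11 and -0.03. The comparisons with WT share the WT libraries. The RNA came from whole embryos, so fewer cells of a type and less RNA per cell cannot be told apart.

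**Figure D1:**
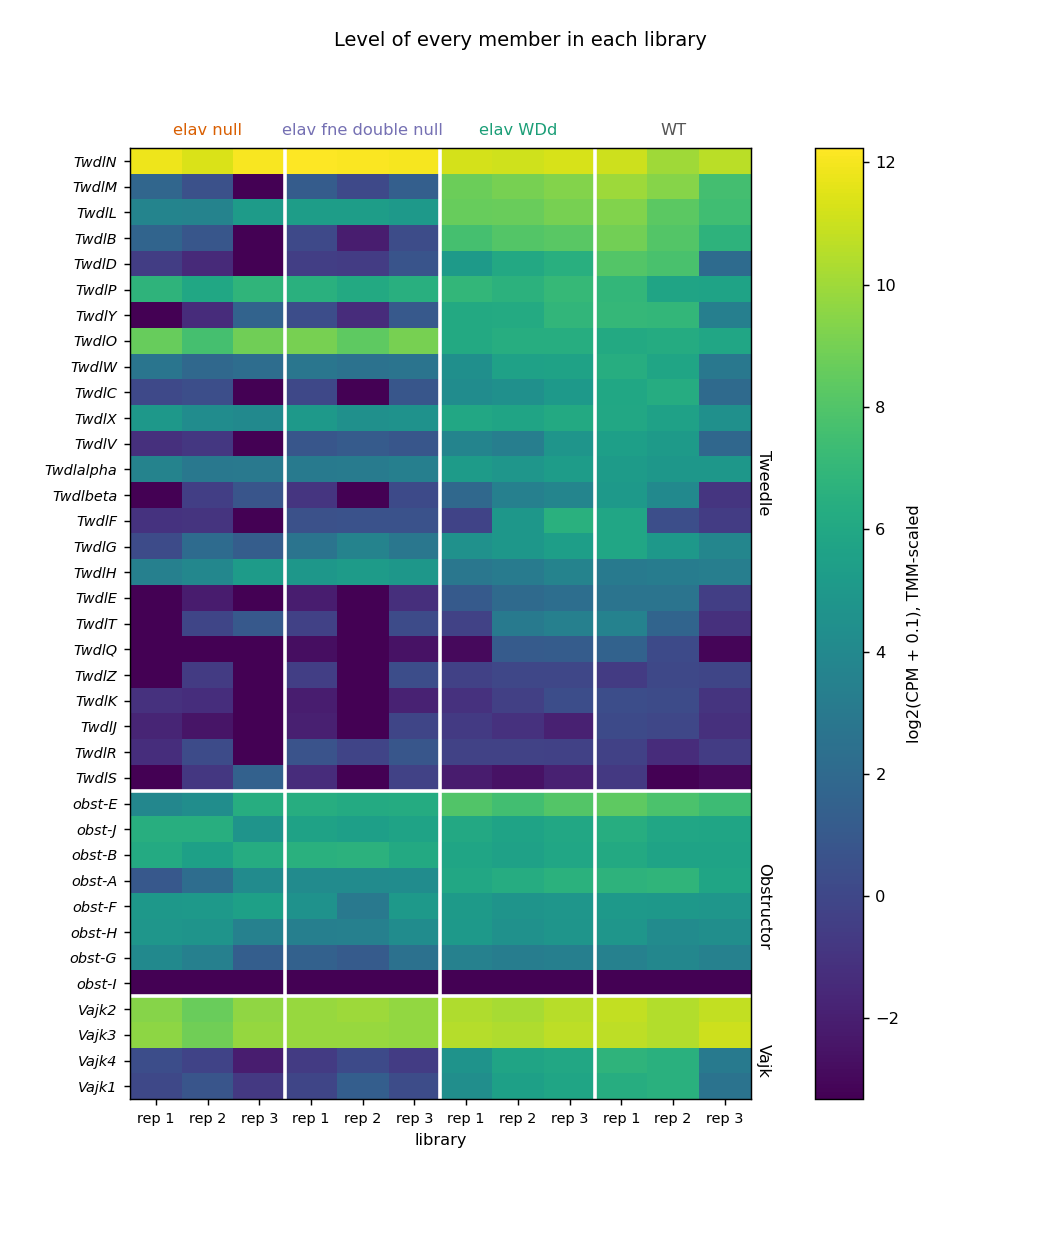
Heat map of the level of all 37 members (rows, by family and by WT level per length) in each of the 12 libraries (columns), with colour giving log2(CPM + 0.1). Most Tweedle rows and the Vajk1 and Vajk4 rows are darker, that is lower, in the elav null and double null libraries than in WT, while TwdlN, TwdlO and TwdlH are brighter.

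The same 17 members were lower in both null groups. They were obst-A, obst-E, all 4 Vajk genes and 11 Tweedle genes (Twdlalpha, TwdlB, TwdlC, TwdlD, TwdlE, TwdlG, TwdlL, TwdlM, TwdlV, TwdlW and TwdlY). TwdlH, TwdlN and TwdlO were higher in both. TwdlF and TwdlQ were called lower in elav null only, and obst-G and Twdlbeta in the double null only. Without the library labelled elav null replicate 3, neither TwdlF (log2 fold change -5.70 ± 2.10 SE, adjusted p = 0.084) nor TwdlQ (-9.55 ± 3.10 SE, adjusted p = 0.0549) was called in elav null. A call in one null and not in the other does not show that the nulls differ. Neither comparison called the 12 members obst-B, obst-F, obst-H, obst-J, TwdlJ, TwdlK, TwdlP, TwdlR, TwdlS, TwdlT, TwdlX and TwdlZ. obst-I had 0 counts in every library and was not tested. The exons of obst-I overlap those of asRNA:CR45829 on the opposite strand. The handling of strand is not known, so 0 counts need not mean that its RNA was absent. Another 7 members (TwdlE, TwdlJ, TwdlK, TwdlQ, TwdlR, TwdlS and TwdlZ) averaged under 5 CPM in every group.

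Abundant Tweedle transcripts of WT embryos included some that were nearly lost in the nulls (TwdlM and TwdlB), one that was lower but still measurable (TwdlL), one that was not called (TwdlP) and some that were raised (TwdlN and TwdlO). TwdlM, a Tweedle gene at 3R: 26619118 to 26620224 (dm6), had 3.47, 1.36 and 0 CPM in elav null, 2.18, 0.967 and 2.48 CPM in the double null, 424, 526 and 659 CPM in WDd, and 981, 691 and 191 CPM in WT. The null and WT libraries did not overlap, and elav null replicate 3 had no TwdlM count at all. TwdlM was lower in elav null (log2 fold change -8.45 ± 0.96 SE, adjusted p = 6.1e-05) and in the double null (-8.38 ± 0.96 SE, adjusted p = 4.87e-05). TwdlB, at 3R: 26622451 to 26623543, followed it with 3.2, 1.7 and 0 CPM in elav null, 0.995, 0.14 and 1.11 CPM in the double null, 197, 268 and 311 CPM in WDd, and 480.5, 271 and 108 CPM in WT. TwdlB fell in both nulls, with a log2 fold change of -7.32 ± 0.97 (SE, adjusted p = 0.000164) in elav null and -8.62 ± 1.03 (SE, adjusted p = 6.47e-05) in double null embryos. TwdlL, the neighbour of TwdlB at 3R: 26624587 to 26625652, had 13, 12.2 and 37.7 CPM in elav null, 40.0, 40.0 and 33.6 CPM in the double null, 393, 418 and 529.9 CPM in WDd, and 619, 313 and 177 CPM in WT. Both nulls were below every WT library, at -4.15 ± 0.50 (SE, adjusted p = 8.51e-05) in elav null and -3.29 ± 0.48 (SE, adjusted p = 0.000255) in double null embryos. All 3 genes remained called when any one library was left out, but the sizes moved. Without elav null replicate 3 the elav null value of TwdlL was -4.87 ± 0.46 SE, adjusted p = 2.17e-05, and without elav null replicate 1 those of TwdlM and TwdlB were -9.59 and -8.18. Without WT replicate 1, TwdlL stood at -3.54 in elav null embryos and at -2.67 in double null embryos, and TwdlB at -6.70 and -8.00.

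TwdlD is the Tweedle gene whose dominant mutations shorten the body. It had 0.619, 0.264 and 0 CPM in elav null, 0.632, 0.571 and 1.53 CPM in the double null, 35.3, 67 and 89.3 CPM in WDd, and 271, 219.6 and 4.3 CPM in WT. The highest null value was 1.53 CPM and every WT library lay above it, although WT replicate 3 was far below the other WT libraries. TwdlD was lower in elav null (log2 fold change -8.80 ± 1.31 SE, adjusted p = 0.00038) and in the double null (-7.52 ± 1.21 SE, adjusted p = 0.000545). TwdlY, on the X chromosome (16734947 to 16735980), showed the same order, with 0, 0.286 and 2.97 CPM in elav null, 1.17, 0.291 and 1.95 CPM in the double null, 69.3, 73.9 and 122 CPM in WDd, and 131, 124 and 10.5 CPM in WT. WT replicate 3 was again the lowest WT library, and the log2 fold change was -6.71 ± 1.35 (SE, adjusted p = 0.00332) in elav null and -6.31 ± 1.28 (SE, adjusted p = 0.00283) in double null embryos. The elav null value of TwdlY was -9.67 ± 1.46 SE, adjusted p = 0.000503 without elav null replicate 3 and -5.90 without replicate 1, and its double null value -6.93 without double null replicate 3. That of TwdlD was -9.90 in elav null without elav null replicate 1 and -6.93 in double null embryos without WT replicate 1. Twdlalpha, in the same X-linked group with TwdlX, TwdlY and TwdlZ, fell by a much smaller factor and with little spread. It had 12.2, 7.26 and 7.61 CPM in elav null, 8.1, 8.93 and 10.5 CPM in the double null, 37.1, 29 and 38.6 CPM in WDd, and 37.3, 30.6 and 30.2 CPM in WT, and its log2 fold change was -1.85 ± 0.24 (SE, adjusted p = 0.000137) in elav null and -1.83 ± 0.24 (SE, adjusted p = 0.000113) in double null embryos. The exons of Twdlalpha overlap those of CG32568 on the same strand, so reads of the 2 genes could not be told apart with certainty.

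TwdlQ, with no count in any elav null library, had 2.88, 1.03 and 0.0151 CPM in WT and was at least 68.0-fold lower by its mean, the limit being 3 counts over the group. WT replicate 3 was itself near that limit. The remaining called Tweedle members (TwdlC, TwdlE, TwdlF, TwdlG, TwdlV and TwdlW) had log2 fold changes of -6.55 ± 1.66 (SE, TwdlE) to -3.29 ± 0.64 (SE, TwdlW) in elav null. Twdlbeta had 0, 0.638 and 1.63 CPM in elav null, 0.426, 0 and 1.03 CPM in the double null, 3.72, 10.9 and 13.2 CPM in WDd, and 32.3, 16.7 and 0.438 CPM in WT, and it was called in the double null (-5.11 ± 1.65 SE, adjusted p = 0.0413) although WT replicate 3 lay within the null range. The exons of TwdlE overlap those of lectin-28C on the opposite strand. Tb, the relative outside the symbol rule, had 0.383, 0.925 and 0 CPM in elav null, 0.568, 0 and 1.25 CPM in the double null, 0.216, 5.21 and 6.81 CPM in WDd, and 7.75, 3.69 and 1.34 CPM in WT. Its fold change was not called in elav null (-3.25 ± 1.57 SE, adjusted p = 0.189).

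The 3 raised genes included TwdlN, which had the highest mean level per length of all members in WT, although Vajk2 and Vajk3 were above it in WT replicate 2 and Vajk3 in WT replicate 3. TwdlN had 3688, 2665 and 4353 CPM in elav null, 4814, 4561 and 4172 CPM in the double null, 2426, 2197 and 2505 CPM in WDd, and 2111, 1032 and 1597 CPM in WT. Every null library lay above every WT library, and the WDd libraries lay between. TwdlN was higher by 2.26-fold in elav null (log2 fold change 1.18 ± 0.26 SE, adjusted p = 0.00619) and by 2.86-fold in the double null (1.51 ± 0.26 SE, adjusted p = 0.000896). With only the 6 libraries of the 2 groups in the fit, the elav null value was 1.19 with an adjusted p of 0.0545, and without the 3 libraries with the fewest genes it was 0.76 (adjusted p = 0.178). TwdlO had 391, 203 and 466 CPM in elav null, 532, 325 and 516 CPM in the double null, 71.2, 83.3 and 83.7 CPM in WDd, and 69.5, 75.4 and 60.1 CPM in WT. The null libraries did not overlap with those of WDd or WT, and the fold was 5.17 in elav null (log2 fold change 2.37 ± 0.28 SE, adjusted p = 8.03e-05) and 6.7 in the double null (2.74 ± 0.29 SE, adjusted p = 2.44e-05). TwdlH was much less abundant, with 11, 14.3 and 37.7 CPM in elav null, 30.2, 37.4 and 29.8 CPM in the double null, 7.16, 8.87 and 12.6 CPM in WDd, and 8.18, 9.05 and 9.99 CPM in WT. Its log2 fold change was 1.21 ± 0.38 (SE, adjusted p = 0.0441) in elav null and 1.84 ± 0.39 (SE, adjusted p = 0.00368) in double null embryos. The elav null call of TwdlH rested on the library labelled elav null replicate 3: without it the log2 fold change was 0.49 (adjusted p = 0.208). It was also lost without any one WT library (adjusted p of 0.0765 to 0.121) with the 6 libraries alone (0.146) and without the 3 libraries with the fewest genes (0.172). TwdlO stayed called there, at 1.58.

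**Figure D2:**
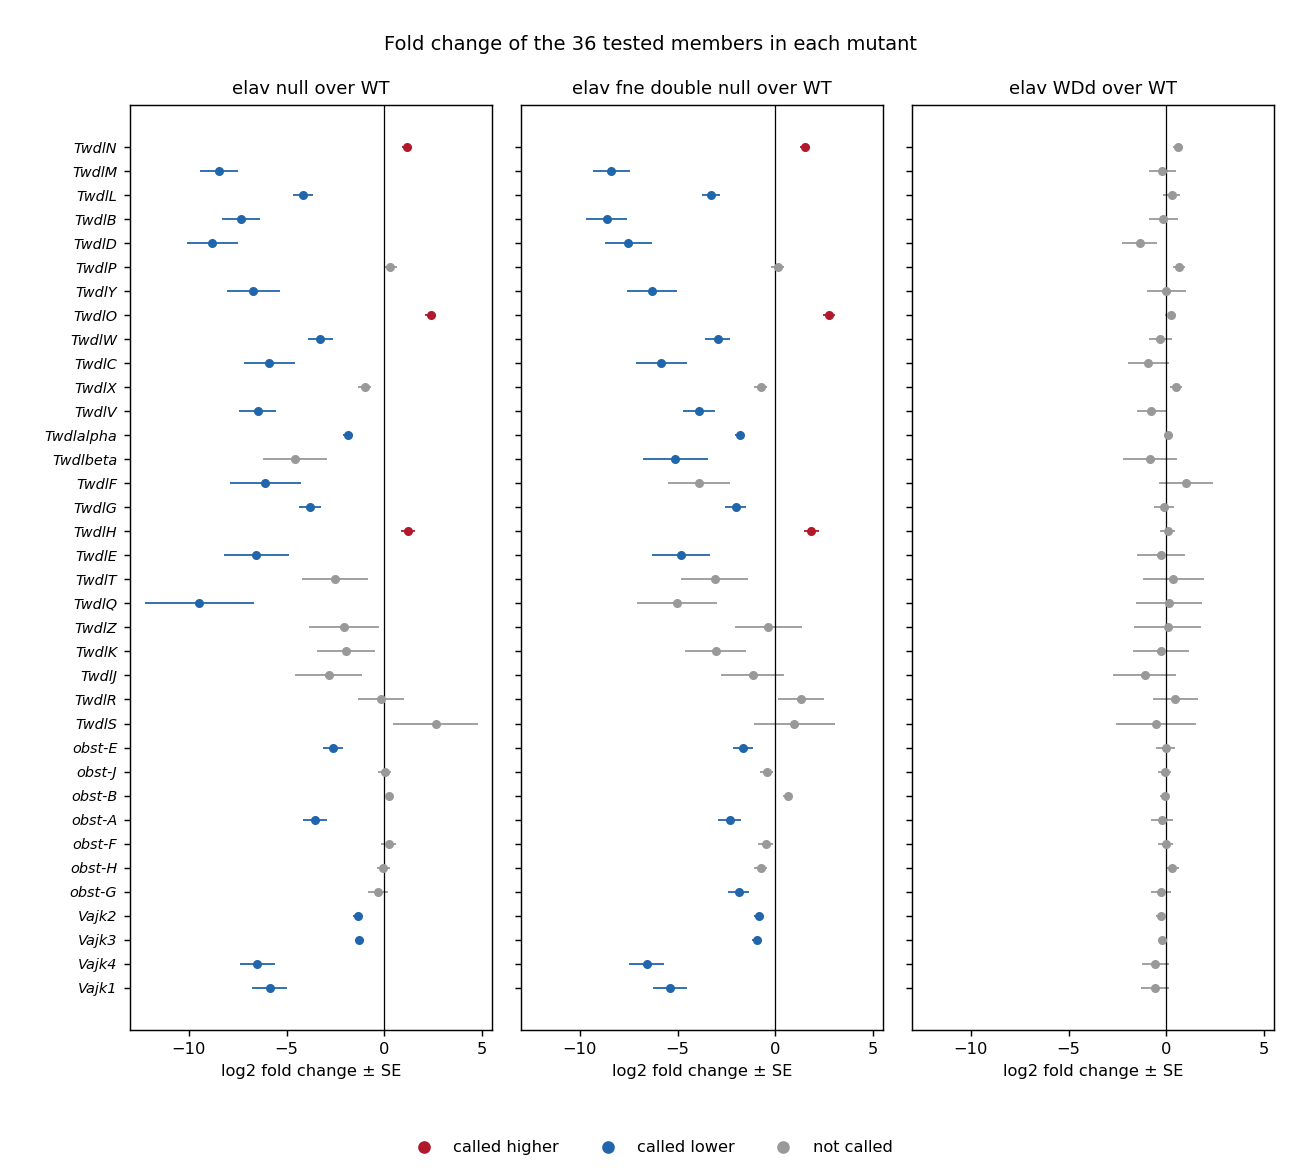
Log2 fold change against WT of each tested member (points, with the standard error as bars) in elav null, the double null and WDd. The null values run from -9.46 to 2.74, while every WDd value lies between -1.37 and 1.0; the lowest, TwdlQ in elav null, has no counts there, so its fitted value depends on the prior count.

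Genes that rose and genes that fell stood side by side on chromosome 3R. A run of 12 Tweedle genes occupies 21937 bp there (26619118 to 26641054, dm6), in the order TwdlM, TwdlP, TwdlB, TwdlL, TwdlO, TwdlK, TwdlJ, TwdlN, TwdlH, TwdlR, TwdlS and TwdlD. TwdlM, TwdlB, TwdlL and TwdlD were lower in both nulls, TwdlO, TwdlN and TwdlH were higher, and the other 5 were not called. TwdlL and TwdlO are direct neighbours on the same strand and moved in opposite directions. TwdlP, between TwdlM and TwdlB on the opposite strand to TwdlM, had 112, 62.2 and 116 CPM in elav null, 92.6, 71.1 and 91.6 CPM in the double null, 128, 103 and 137 CPM in WDd, and 128, 54.7 and 51.9 CPM in WT, and each null overlapped with WT. TwdlK, TwdlJ, TwdlR and TwdlS were at or under 2.79 CPM in every library.

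**Figure D3:**
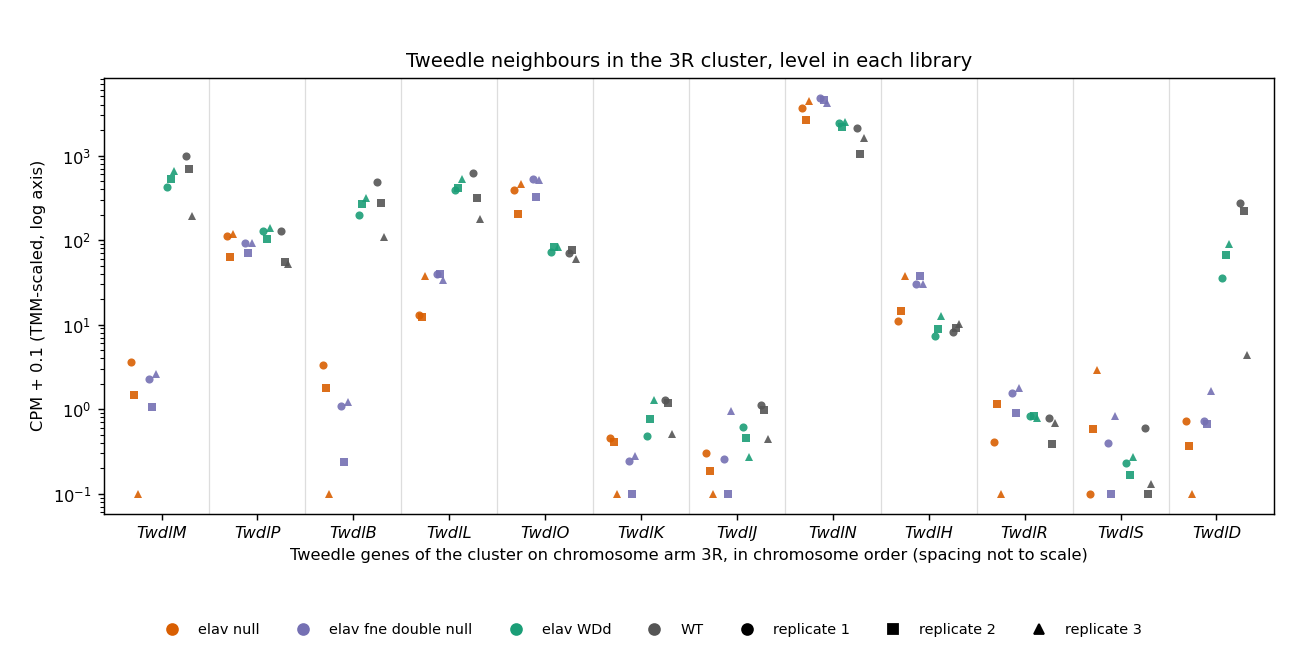
Level in each library (points, CPM + 0.1 on a log axis; colour gives the group and shape the replicate) of the 12 Tweedle genes of the 3R run, in chromosome order. TwdlM, TwdlB, TwdlL and TwdlD lie lower in both nulls than in WDd and WT, and TwdlO, TwdlN and TwdlH lie higher in nearly every library.

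The summed Tweedle level changed less than its make-up. Summed over the 25 genes it was 4109 ± 1035 CPM in elav null, 5192 ± 344 CPM in the double null, 4257 ± 504 CPM in WDd and 3554 ± 1536 CPM in WT (SD, n = 3 each). On the scale of CPM per kb of exon, which allows levels of different genes to be compared, TwdlN made up 82.8, 86.1 and 82.7% of the summed Tweedle level in elav null and 83, 87.2 and 81.4% in double null embryos. It made up 60.1, 53.6 and 50.6% in WDd and 38.9, 32.2 and 68.1% in WT. TwdlM made up 0.0822, 0.0466 and 0% in elav null, 0.0397, 0.0195 and 0.0511% in double null embryos, 11.1, 13.6 and 14% in WDd and 19.1, 22.8 and 8.62% in WT. TwdlO made up 11.8, 8.85 and 11.9% in elav null, 12.4, 8.38 and 13.6% in double null embryos, 2.38, 2.74 and 2.28% in WDd and 1.73, 3.17 and 3.45% in WT. The null libraries were thus alike in the share of TwdlN, while the WT libraries ranged widely.

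**Figure D4:**
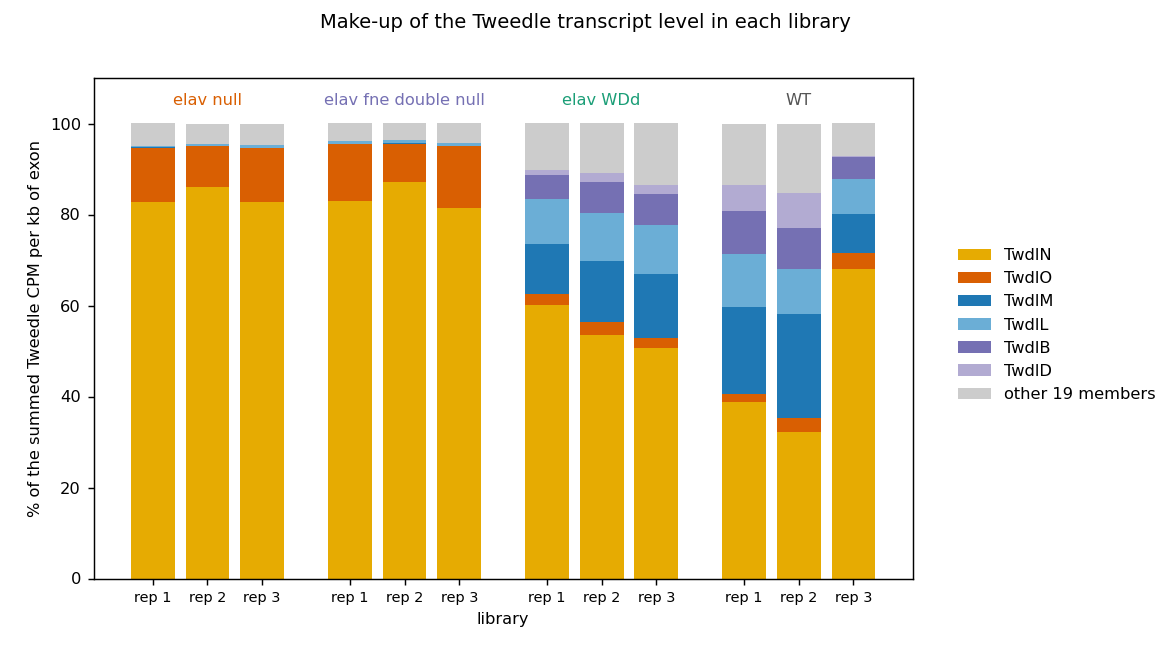
Stacked bars of the share of each named gene in the summed Tweedle CPM per kb of exon, one bar per library. TwdlN and TwdlO fill most of every null bar, while TwdlM, TwdlL, TwdlB and TwdlD are visible in the WDd and WT bars and smaller in WT replicate 3 than in the other WT libraries.

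All 4 Vajk genes were lower in both nulls, but by very different factors. Vajk1 had 0.923, 1.61 and 0.511 CPM in elav null, 0.837, 2.39 and 1.11 CPM in the double null, 20.4, 45.8 and 55.7 CPM in WDd, and 81.3, 94 and 5.97 CPM in WT. Vajk4, which lies apart from the others on 2R, had 1.17, 0.793 and 0.139 CPM in elav null, 0.553, 1.04 and 0.589 CPM in the double null, 25.3, 54.7 and 63 CPM in WDd, and 111, 91.8 and 7.94 CPM in WT. Both were close to absent in every null library, and WT replicate 3 was the only WT library under 10 CPM for either. The log2 fold change of Vajk1 was -5.85 ± 0.89 (SE, adjusted p = 0.000447) in elav null and -5.37 ± 0.86 (SE, adjusted p = 0.000522) in double null embryos. That of Vajk4 was -6.49 ± 0.90 (SE, adjusted p = 0.000224) in elav null and -6.57 ± 0.89 (SE, adjusted p = 0.000157) in double null embryos. Vajk2 had 693, 414 and 814 CPM in elav null, 915, 984 and 827 CPM in the double null, 1317, 1186 and 1529.7 CPM in WDd, and 1756, 1377 and 1779.9 CPM in WT. Vajk3 had 756, 472 and 880.5 CPM in elav null, 912, 913 and 838 CPM in the double null, 1423, 1352 and 1630.2 CPM in WDd, and 1669, 1386 and 2088 CPM in WT. These 2 genes kept a high level in the nulls, and their WT libraries were close to one another. The log2 fold change of Vajk2 was -1.35 ± 0.24 (SE, adjusted p = 0.00121) in elav null and -0.85 ± 0.23 (SE, adjusted p = 0.0183) in double null embryos. That of Vajk3 was -1.29 ± 0.23 (SE, adjusted p = 0.0016) in elav null and -0.95 ± 0.23 (SE, adjusted p = 0.00909) in double null embryos. The double null call of Vajk2 was lost without WT replicate 1 (adjusted p = 0.0546), double null replicate 1 (0.0676) or double null replicate 3 (0.0811). Vajk1, Vajk2 and Vajk3 all lie within the span of Ance-3 on 2L, with no overlap of exons.

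Among the Obstructor genes only obst-A and obst-E were lower in both nulls. obst-A had 1.81, 4.62 and 18.2 CPM in elav null, 18.2, 18.1 and 19 CPM in the double null, 63, 79 and 98.7 CPM in WDd, and 105, 117 and 56 CPM in WT. All null libraries lay below all WT libraries, and the log2 fold change was -3.54 ± 0.62 (SE, adjusted p = 0.00129) in elav null and -2.33 ± 0.58 (SE, adjusted p = 0.0109) in double null embryos. obst-E had 14.7, 19.6 and 84.2 CPM in elav null, 82.8, 73.2 and 77 CPM in the double null, 254, 185 and 270.2 CPM in WDd, and 337, 227 and 165 CPM in WT. Its log2 fold change was -2.63 ± 0.52 (SE, adjusted p = 0.00312) in elav null and -1.65 ± 0.50 (SE, adjusted p = 0.0323) in double null embryos. For both genes elav null replicate 3 lay several fold above elav null replicates 1 and 2 and close to the double null libraries. Without it, the elav null value of obst-A was -4.86 ± 0.44 (SE, adjusted p = 1.68e-05) and that of obst-E was -3.82 ± 0.32 (SE, adjusted p = 8.3e-06). The double null call of obst-E was lost under RLE factors (-1.5, adjusted p = 0.0510), in DESeq2 (0.0555) and without WT replicate 1, WT replicate 2 or any one double null library (adjusted p of 0.0631 to 0.119).

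Of the other tested Obstructor genes, whose roles in the embryo are less well known, obst-G alone was called, in the double null. obst-G had 16.6, 10.9 and 2.37 CPM in elav null, 2.7, 2.07 and 5.55 CPM in the double null, 11.2, 9.68 and 10.3 CPM in WDd, and 11.4, 14.8 and 11.4 CPM in WT. It was lower in double null embryos (log2 fold change -1.87 ± 0.54 SE, adjusted p = 0.025) and not called in elav null (-0.32 ± 0.52 SE, adjusted p = 0.744), and the double null call was lost without WT replicate 2 (adjusted p = 0.0952) or double null replicate 1 (0.110) or 2 (0.109). obst-B had 73.7, 45.4 and 78.8 CPM in elav null, 92.3, 101 and 69 CPM in the double null, 55.6, 47.9 and 58.2 CPM in WDd, and 68.7, 51.3 and 50.9 CPM in WT. The double null libraries all lay above those of WT, and the log2 fold change there was 0.62 ± 0.22 (SE, adjusted p = 0.0654), which was not called; it was called under RLE factors (0.75, adjusted p = 0.0210), in DESeq2 (0.00624) and with elav null replicate 3 left out of the common fit (0.0384). In elav null it was 0.21 ± 0.22 (SE, adjusted p = 0.59). obst-F had 31.1, 32.9 and 45.1 CPM in elav null, 24.7, 7.66 and 34.3 CPM in the double null, 35.9, 26.2 and 28.9 CPM in WDd, and 33.8, 30.7 and 28.9 CPM in WT, with a log2 fold change of 0.22 ± 0.38 (SE, adjusted p = 0.758) in elav null and -0.49 ± 0.38 (SE, adjusted p = 0.441) in double null embryos. Its exons overlap those of CG42833 on the opposite strand. obst-H had 28.4, 25.9 and 11.4 CPM in elav null, 10.6, 10.8 and 18.8 CPM in the double null, 32.9, 23.4 and 27.4 CPM in WDd, and 28.8, 18.3 and 20.9 CPM in WT, with -0.05 ± 0.33 (SE, adjusted p = 0.95) in elav null and -0.76 ± 0.33 (SE, adjusted p = 0.134) in double null embryos. With elav null replicate 3 left out of the common fit, the double null value was called (-0.74 ± 0.25 SE, adjusted p = 0.0461). obst-J had 84.7, 86.3 and 26.8 CPM in elav null, 48.8, 44.3 and 51.3 CPM in the double null, 66.5, 52.8 and 64.4 CPM in WDd, and 81.4, 58 and 55.9 CPM in WT, with 0.02 ± 0.33 (SE, adjusted p = 0.978) in elav null and -0.44 ± 0.33 (SE, adjusted p = 0.422) in double null embryos. Libraries of the groups overlapped for obst-F and obst-H in both nulls. The summed Obstructor level was 247.8 ± 20.8 CPM in elav null, 270.9 ± 11.9 CPM in the double null, 500.3 ± 68.8 CPM in WDd and 524.4 ± 138 CPM in WT (SD, n = 3 each). The relatives outside the symbol rule went opposite ways: Gasp, which organises tracheal chitin, rose, and Peritrophin-A fell. Gasp had 307, 277 and 468 CPM in elav null, 454, 459.9 and 362 CPM in the double null, 156, 224 and 224 CPM in WDd, and 209, 157 and 146 CPM in WT, with a log2 fold change of 1.04 ± 0.23 (SE, adjusted p = 0.0068) in elav null and 1.32 ± 0.23 (SE, adjusted p = 0.0011) in double null embryos. Peritrophin-A had 34.5, 24.7 and 29.3 CPM in elav null, 42.1, 33.2 and 38.2 CPM in the double null, 80.3, 73.1 and 82.3 CPM in WDd, and 77.3, 58.3 and 58.4 CPM in WT, with -1.13 ± 0.18 (SE, adjusted p = 0.000572) in elav null and -0.78 ± 0.18 (SE, adjusted p = 0.00603) in double null embryos.

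In embryos with the elav[WDd] allele no member was called against WT. edgeR called 0 of 36 members at an adjusted p under 0.05, beside 0.135% lower and 0.0641% higher of all genes, and DESeq2 called 0 as well. At an unadjusted p under 0.05 edgeR had 1 member, TwdlN, beside 4.59% of all genes. All 3 of its WDd libraries lay above those of WT, with a log2 fold change of 0.59 ± 0.26 (SE). The 7 tested Obstructor genes ran from -0.27 (obst-G) to 0.30 (obst-H) and the 4 Vajk genes from -0.57 (Vajk1) to -0.22 (Vajk3). All members ran from -1.37 ± 0.91 (SE, TwdlD) to 1.0 ± 1.4 (SE, TwdlF). Differences of the size of the standard errors were not detectable. Large standard errors follow from the spread within all 4 groups, which share 1 estimate per gene in the fit. TwdlF shows it: it had 0.394, 0.396 and 0 CPM in elav null, 1.36, 1.44 and 1.39 CPM in the double null, 0.765, 29.8 and 93.8 CPM in WDd, and 60.1, 1.26 and 0.573 CPM in WT, so that 1 WDd library and 2 WT libraries were near the null level, and the others far above it.

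Set against the nulls, most members that were called were higher in WDd. Against elav null, 20 of 36 members were higher and 1, TwdlO, was lower in WDd, beside 11.0% higher and 5.83% lower of all genes. Against the double null, 18 were higher and 4 (TwdlO, TwdlH, TwdlN and obst-B) were lower, beside 14.3% higher and 6.60% lower of all genes. TwdlM was higher in WDd than in elav null (log2 fold change 8.24 ± 0.96 SE, adjusted p = 7.45e-05) and than in the double null (8.17 ± 0.95 SE, adjusted p = 5.74e-05). TwdlL and Twdlalpha were higher than in elav null by 4.42 ± 0.51 (SE) and 1.95 ± 0.24 (SE) on the log2 scale. TwdlB was higher than in the double null by 8.47 ± 1.02 (SE). Vajk1 and Vajk4 were higher in WDd by 5.28 ± 0.87 and 5.93 ± 0.88 (SE) than in elav null, and by 4.80 ± 0.84 and 6.02 ± 0.87 (SE) than in the double null. Vajk3 was higher than in both nulls (1.06 ± 0.23 SE, adjusted p = 0.006 against elav null, and 0.73 ± 0.23 SE, adjusted p = 0.0383 against the double null), and Vajk2 than in elav null (1.07 ± 0.23 SE, adjusted p = 0.00629). Of the Obstructor genes, obst-A was higher in WDd than in elav null (3.33 ± 0.62 SE, adjusted p = 0.00198) and than in the double null (2.12 ± 0.58 SE, adjusted p = 0.0187). obst-E was higher likewise (2.59 ± 0.52 SE, adjusted p = 0.00364 against elav null, and 1.61 ± 0.50 SE, adjusted p = 0.0365 against the double null). Against the double null, obst-H was higher (1.06 ± 0.34 SE, adjusted p = 0.0391) and obst-B lower (-0.70 ± 0.22 SE, adjusted p = 0.0389). obst-A, obst-B, obst-E, obst-H, TwdlN and Vajk3 each lost their call against the double null when any of several single libraries was left out. That of obst-E was also lost under RLE factors (adjusted p = 0.0573) and in DESeq2 (0.0643), that of Vajk3 under RLE factors (0.0865), and that of obst-H under RLE factors (0.0782) and with the replicate block (0.0606). Without elav null replicate 3, the values against elav null were 4.65 ± 0.44 SE, adjusted p = 1.95e-05 for obst-A, 3.77 ± 0.32 SE, adjusted p = 8.2e-06 for obst-E and 5.14 ± 0.47 SE, adjusted p = 1.5e-05 for TwdlL, and TwdlF (adjusted p = 0.0533) and TwdlQ (0.0528) lost their calls. Against the double null, obst-G (1.57 ± 0.34 SE, adjusted p = 0.00341), TwdlF (adjusted p = 0.0424) and Twdlbeta (0.0498) were then called higher. TwdlM stood at 9.37 against elav null without elav null replicate 1, and Vajk1 was not called against elav null without the 3 libraries with the fewest genes (4.64, adjusted p = 0.0552). TwdlO was lower than in elav null (log2 fold change -2.15 ± 0.28 SE, adjusted p = 0.000151) and than in the double null (-2.53 ± 0.28 SE, adjusted p = 4.33e-05). TwdlX, called in neither comparison of a null with WT, was higher in WDd than in both nulls (1.51 ± 0.34 SE, adjusted p = 0.00687 against elav null, and 1.24 ± 0.33 SE, adjusted p = 0.017 against the double null), and was chosen for mention after its values were seen. The count of 18 fell to 10 without double null replicate 1 or without WDd replicate 3.

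With all 12 libraries, the double null was not distinguished from elav null in any of these genes. edgeR called 0 of 36 members, beside 0.185% lower and 0.0428% higher of all genes. At an unadjusted p under 0.05 there were 4 members, TwdlG, TwdlV and Vajk2 with higher and obst-G with lower values in the double null, beside 13.1% of all genes, and DESeq2 called 1 (TwdlG, higher). The elav null group includes the library whose fne level goes against its label. Without it, 4 members were higher and 3 lower in the double null than in elav null replicates 1 and 2, beside 2.18% higher and 4.94% lower of 14697 genes tested in that fit. The higher ones were obst-E (log2 fold change 2.19 ± 0.29 SE, adjusted p = 0.000629), obst-A (2.55 ± 0.40 SE, adjusted p = 0.00173), TwdlH (1.36 ± 0.26 SE, adjusted p = 0.00609) and TwdlL (1.60 ± 0.39 SE, adjusted p = 0.0265). The lower ones were obst-G (-1.99 ± 0.36 SE, adjusted p = 0.00479), obst-J (-0.82 ± 0.19 SE, adjusted p = 0.0179) and obst-H (-1.01 ± 0.28 SE, adjusted p = 0.0449). Eggshell and yolk genes summed to 81.7 and 611 CPM in elav null replicates 1 and 2, against 4.09 to 7.67 CPM in the double null. The part of this difference in the calls was not tested. The members just named were called only once elav null replicate 3 was left out. That choice favours genes in which it departs from replicates 1 and 2. In the values given above, elav null replicate 3 lay within the range of the double null for obst-A, obst-G, obst-H and TwdlL, and close to it for obst-E and TwdlH. For obst-J it lay well below that range, farther from replicates 1 and 2 than any double null library. It was nearer to the double null mean than to the mean of replicates 1 and 2 in 23 of 36 members (63.9%) and in 7963 of all 14031 genes (56.8%), on the scale of log2(CPM + 0.5). The number of members called against WT in elav null was 17 lower and 2 higher without this library, beside 11.1% lower and 5.82% higher of all genes.

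**Figure D5:**
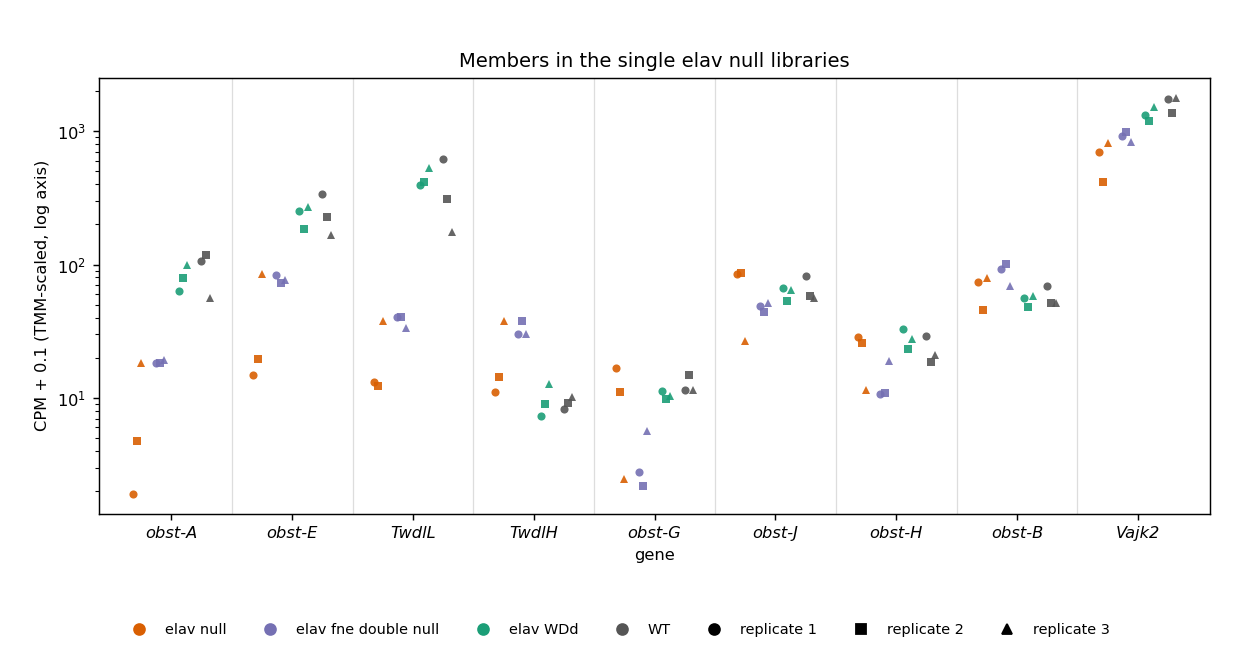
Level in each library of all 4 groups (points, CPM + 0.1 on a log axis; colour gives the group and shape the replicate) of 9 members chosen after their values were seen. For obst-A, obst-E, TwdlH and TwdlL the third elav null library sits with the double null libraries, above elav null replicates 1 and 2, and for obst-G, obst-H and obst-J it sits below elav null replicates 1 and 2.

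The 3 WT libraries differed widely in these genes. WT replicate 3 had the lowest value of the WT libraries in 28 of 36 members (77.8%) and in 37.9% of all genes. The highest WT library was over 4 times the lowest in 15 of 36 members (41.7%) and in 1.99% of all genes, on the scale of CPM + 0.5. Members of high spread included TwdlD, TwdlC, Twdlbeta, Vajk1 and Vajk4, each with WT replicate 3 as the lowest library. TwdlC had 61, 77.6 and 4.01 CPM in WT. TwdlN, Vajk2, Vajk3 and Twdlalpha did not share this pattern, with WT replicate 3 within or above the range of the other WT libraries or close to it. In WDd the lowest library was replicate 1 in 20 of 36 members (55.6%) and in 36% of all genes, and the highest was over 4 times the lowest in 3 members (8.33%) and in 1.05% of genes. In the double null this held for 2 members (5.56%) and 3.14% of genes, and in elav null for 9 (25.0%) and 12.2%. WT replicate 3 also had the most elav and fne RNA of the WT libraries, as given above. The part of these differences in the members' values was not tested. Without WT replicate 3, TwdlH in elav null alone lost its call against WT among the members named by the rule given with the processing, and none reversed. TwdlC and Twdlbeta fall outside that rule and were not followed one by one here.

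Other cuticle genes were taken in lists drawn up with earlier results of these data known, and the lists differed in direction. Their counts stand beside the 11.7% lower and 5.99% higher of all genes in elav null, and the 14.7% lower and 6.68% higher in double null embryos. Cuticle protein genes of the Rebers and Riddiford (RR) type were taken by symbol prefixes such as Cpr and Lcp. The RR chitin-binding motif itself was not checked, so genes without it may be among them. Of the 104 tested, 43 were lower and 1 higher in elav null, and 39 lower and 3 higher in the double null. Their median log2 fold change was -1.56 in elav null and -1.32 in double null embryos, that of all genes being -0.11 and -0.03. Their summed level was 1381 to 2021 CPM in elav null, 1845 to 2084 CPM in the double null, 5140 to 6948 CPM in WDd and 4684 to 8241 CPM in WT. Cpr78Cc, an RR protein, averaged 28.0 ± 7.81 CPM in elav null, 28.7 ± 0.255 CPM in the double null and 331 ± 50.8 CPM in WT (SD, n = 3 each). Of 15 genes of chitin synthesis and assembly, 6 were lower and 3 higher in elav null, and 4 lower and 2 higher in the double null (median log2 fold change -0.27 in elav null and -0.48 in double null embryos). Among them exp (expansion), needed for chitin assembly in the trachea, fell, with log2 fold changes of -1.34 in elav null and -1.29 in double null embryos. Gfat2, an enzyme that makes amino sugar for chitin, rose, with 184 ± 50.7 CPM in elav null, 205 ± 22 CPM in the double null and 47.5 ± 2.41 CPM in WT. Of 15 chitinases and relatives, 2 were lower and 4 higher in elav null, and 1 lower and 5 higher in the double null (medians 0.23 in both). Cht5, a moulting chitinase, averaged 4.77 ± 2.51 CPM in elav null, 5.28 ± 3.75 CPM in the double null and 75.7 ± 53.9 CPM in WT. Of 9 other chitin-binding proteins, 1 was lower and 3 higher in elav null, and 3 lower and 3 higher in the double null (medians 0.29 in elav null and -0.17 in double null embryos). These 9 include Gasp and Peritrophin-A, already given above, and Gasp is counted again among the tracheal genes below. Mur18B, a mucin, was among the higher ones, at 716 ± 220 CPM in elav null, 916 ± 168 CPM in the double null and 230.4 ± 14.6 CPM in WT.

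Of 8 genes of cuticle tanning, 5 were lower and 1 higher in elav null, and 4 lower and 1 higher in the double null (medians -1.34 in elav null and -0.79 in double null embryos). Ddc, which makes dopamine for tanning, averaged 30.6 ± 14.0 CPM in elav null, 26.1 ± 8.28 CPM in the double null and 137 ± 27.5 CPM in WT. Of 16 regulators of the cuticle and of the late ecdysone response, 3 (18.8%) were lower in elav null, beside 11.7% of all genes, and 2 (12.5%) in double null embryos, beside 14.7% (medians -0.24 in elav null and -0.10 in double null embryos). Hr38, a nuclear receptor that acts on Ddc, was also lower in WDd: it averaged 7.17 ± 1.27 CPM in elav null, 7.03 ± 4.07 CPM in the double null, 5.81 ± 1.2 CPM in WDd and 53.4 ± 40.7 CPM in WT. Its log2 fold change in WDd was -3.20 ± 0.55 (SE, edgeR adjusted p = 0.0330). The pigment gene y was the other gene of these cuticle lists called in WDd, with a log2 fold change of -1.13 ± 0.20 (SE, adjusted p = 0.0366). It was lower in elav null (-1.62 ± 0.20 SE) and in the double null (-1.53 ± 0.20 SE) as well. The mutants lacked FM7, so the elav alleles and the balancer cannot be told apart for y.

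Most muscle markers were lower and most midgut markers higher in both nulls. The counts below stand beside 11.7% lower and 5.99% higher of all genes in elav null, and 14.7% and 6.68% in double null embryos. Of 11 genes of the epidermal apical matrix, 1 (9.09%) was lower in elav null, beside 11.7% of all genes, and 2 (18.2%) in double null embryos, beside 14.7%, with a summed level of 148 to 247 CPM in elav null, 227 to 276 CPM in the double null, 365 to 409 CPM in WDd and 317 to 422 CPM in WT. zye, a zona pellucida protein of that matrix, was lower in both nulls. Of 7 tracheal genes, 3 were lower and 1 (Gasp) higher in elav null, and Gasp alone was called in the double null. Their summed level was 755 to 1379 CPM in elav null, 1223 to 1417 CPM in the double null, 1245 to 1460.1 CPM in WDd and 1419 to 1638 CPM in WT. Of 9 muscle genes, 8 (88.9%) were lower in elav null and 9 (100%) in double null embryos. Their summed level was 15421, 8165 and 2342 CPM in elav null replicates 1, 2 and 3. It was 2290.2 to 4415 CPM in the double null, a range that holds elav null replicate 3 but not replicates 1 and 2. In WDd it was 41129 to 44134 CPM and in WT 36932 to 43556 CPM. Of 8 midgut genes, 5 (62.5%) were higher in elav null and 6 (75.0%) in double null embryos, beside 5.99% and 6.68% of all genes, with 7413 to 8223 CPM in elav null, 6783 to 8343 CPM in the double null, 3087 to 3762 CPM in WDd and 3372 to 4224 CPM in WT. Of 9 neuronal genes, 3 were lower in the double null, and their summed level was 1626 to 2538 CPM in elav null, 1515 to 1813 CPM in the double null, 1993 to 2678 CPM in WDd and 1502 to 3143 CPM in WT. Of 6 haemocyte genes, 2 were higher in elav null and 1 in double null embryos, with 232 to 323 CPM in elav null, 306 to 351 CPM in the double null, 249.6 to 327 CPM in WDd and 242 to 330.3 CPM in WT. Of 6 fat body genes, 1 was higher in elav null, and 1 was higher and 1 lower in the double null, with 2899.9 to 4247 CPM in elav null, 2875 to 3849 CPM in the double null, 3537 to 4404 CPM in WDd and 2894 to 5227 CPM in WT. Of 10 eggshell and yolk genes, 7 (70%) were higher in elav null, beside 5.99% of all genes. Their summed level was 81.7, 611 and 15.9 CPM in elav null replicates 1, 2 and 3, so replicate 2 held most of it. It was 4.09 to 7.67 CPM in the double null, 1.15 to 1.69 CPM in WDd and 1.51 to 3.62 CPM in WT. Hr38 and y, named above, were the members of the 14 lists called in WDd. The part of these cell types in the levels of the Tweedle, Obstructor and Vajk genes was not tested.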

How the data were processed

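Gene expression was measured by RNA sequencing of poly(A) RNA from 12 libraries of whole embryos, 3 in each of 4 groups, as paired reads of 150 bp. The authors deposited raw read counts per gene for 17561 genes. The submitters' processing notes list the dm6 build, DESeq2 1.40.2, featureCounts 2.0.8, STAR 2.7.11a and Trim Galore 0.6.7. How strand and multiply mapped reads were handled is not given in the sources used here, so reads of overlapping genes and near-identical copies may be shared. Symbols and positions came from the RefSeq table of the same assembly, which matched all 17561 gene numbers. Of the 38 genes there whose symbols fit the rule, 37 were in the table, and TwdlU was not analysed here.

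The 14031 genes that passed filterByExpr were fitted in 1 model of all 12 libraries with group as the term, using TMM factors and two-sided quasi-likelihood F tests in edgeR 4.0.16 (R 4.3.3, limma 3.58.1). Benjamini-Hochberg adjustment ran over all genes tested, with calls made at an adjusted p under 0.05. The biological coefficient of variation common to all genes was 0.595. CPM values are TMM-scaled, and log2 fold changes have the group named first on top. SE is the absolute log2 fold change divided by the square root of F. Depth ran from 22491041 to 97043662 counts. No library pair agreed within sampling noise. The code was tested on simulated counts.

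The members and the 14 lists were chosen with earlier results of these data known. Values were given for all tested Obstructor and Vajk members. Tweedle members were named when they were the 4 most changed in a direction (calls with at least 5 CPM), the first 4 by adjusted p between mutants, or the 3 highest per length. Up to 3 called genes per list could be named, by smallest adjusted p. Members named outside this rule were chosen after their values were seen. Listed symbols not matched were AANAT1, dp and dys.

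Alternatives were RLE factors, no low count filter, the replicate block, only the 6 libraries compared, DESeq2 1.42.0 and leaving out each library. Leaving out the 3 libraries with the fewest genes, and dropping elav null replicate 3 also from comparisons that do not use that group, were added after seeing the data.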

Additional observations from a re-analysis of the deposited data

How the results depend on the processing

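No call reversed among the members named by the rule above. Of 1500 alternative values for their 120 member values, 1414 kept their side of the threshold, 56 lost a call and 30 gained one. Tested members outside that rule, among them TwdlF, TwdlQ and Twdlbeta, are not in these values. Apart from leaving out single libraries, for which the ranges are given below, the counts of members that moved by over 1.5 times were as follows. Lower in WDd against elav null (1 member) became 2 with RLE factors, 2 with no low count filter and 3 in DESeq2. Higher in elav null against WT (3 members) became 1 with only the 6 libraries compared and 1 without the 3 libraries with the fewest genes. Higher in the double null against elav null (0 members) became 1 in DESeq2 and 3 without the 3 libraries; this last fit leaves elav null with replicate 2 alone, assumed to vary like the other groups. Leaving out each library in turn gave 17 to 21 lower and 2 to 3 higher members in elav null against WT, 13 to 20 lower and 3 to 4 higher in the double null against WT, 0 to 0 in WDd against WT, 0 to 3 lower and 0 to 4 higher in the double null against elav null, 1 to 2 lower and 17 to 20 higher in WDd against elav null, and 2 to 4 lower and 10 to 16 higher in WDd against the double null. The cause of these shifts was not tested. No strong shared effect of replicate number was seen: correlations of deviations between same-numbered libraries ran from -0.265 to 0.134. They cannot show whether same-numbered libraries were collected or prepared together. With the replicate block, members lower and higher were 18 and 3 in elav null against WT, 17 and 3 in the double null against WT, 0 and 0 in WDd against WT, 0 and 0 in the double null against elav null, 1 and 19 in WDd against elav null, and 4 and 16 in WDd against the double null. RLE factors moved the median log2 fold change of all genes by 0.135 in the double null against WT and by -0.141 in WDd against the double null.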
